A study of Mus musculus with 2 samples.

Results

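The AP-1 and immediate early genes considered here are Fos, Fosb, Fosl1, Fosl2, Jun, Junb, Egr1, Ier2, Ier3 and Dusp1, 10 of the 37074 gene names on a mouse expression array. They were picked by gene name, as AP-1 subunits and immediate early genes, with earlier results of these data known, and no measured value enters the rule. They were followed in mDE6 cells, a line of mouse odontogenic epithelium, with and without CHIR99021, an inhibitor of glycogen synthase kinase 3 (GSK-3) that stabilises β-catenin. Each condition, control and CHIR99021, was measured on 1 array at 6 h. Both conditions used the same line, and neither carried a transgene or a deletion that the labels name. The labels give the dose as 5 mM and the control as treated with DMSO, whereas the methods of the study give 5 μM and untreated cells. Nothing in the labels describes separate cultures. With 1 array per condition, no difference has a replicate check, no p-value is given, and the number of arrays limits the precision. Both arrays lay on the same slide, so the effects of condition and of array position cannot be told apart.

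AP-1 is a family of dimeric transcription factors. Fos-type proteins cannot pair with each other and act by pairing with a Jun-type protein through a leucine zipper, whereas Jun-type proteins can also pair among themselves. Immediate early genes are transcribed within minutes of growth factors, stress or serum, without new protein synthesis, and mRNAs such as Fos and Egr1 usually decay again within hours, while Fosl1 and Fosl2 tend to follow later. GSK-3 is known to phosphorylate c-Jun near its DNA-binding region and thereby to mark it for degradation, which acts on protein and cannot be seen on an array of RNA.

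The control regions of these genes show which kinds of site lie next to their starts. RefSeq promoter windows of assembly GRCm38.p6, from 250 bases before to 50 after the start, were at hand for 7 of the 10 members (Fos, Fosb, Fosl2, Jun, Junb, Ier3 and Dusp1). Entries for Fosl1, Ier2 and Egr1 were not in the table used here. The windows were searched on both strands for TGACG, the core of the site bound by CREB and ATF proteins, for TGACNTCA, its full 8-base form, for TGANTCA, the 7-base AP-1 site, and for the CArG box bound by serum response factor. A TGACNTCA with G at its N also holds TGACG, so these motifs overlap. The 200 bases before the start are shown for Jun and Ier3, whose mRNA signal was higher after CHIR99021, for Fos, whose signal was lower, and for Dusp1, which holds the most matches. Matches are in capitals, and each sequence runs 5′ to 3′ on the strand of its gene.
Jun, chr4:95052223-95052422, minus strand: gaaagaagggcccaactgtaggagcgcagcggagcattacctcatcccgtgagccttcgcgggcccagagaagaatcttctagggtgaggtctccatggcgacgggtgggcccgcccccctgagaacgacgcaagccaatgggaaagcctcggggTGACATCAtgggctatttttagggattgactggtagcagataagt
Ier3, chr17:35821513-35821712, plus strand: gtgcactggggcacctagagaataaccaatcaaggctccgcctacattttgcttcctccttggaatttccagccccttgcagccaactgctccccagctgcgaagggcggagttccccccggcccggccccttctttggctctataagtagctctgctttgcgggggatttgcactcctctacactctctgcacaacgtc
Fos, chr12:85473690-85473889, plus strand: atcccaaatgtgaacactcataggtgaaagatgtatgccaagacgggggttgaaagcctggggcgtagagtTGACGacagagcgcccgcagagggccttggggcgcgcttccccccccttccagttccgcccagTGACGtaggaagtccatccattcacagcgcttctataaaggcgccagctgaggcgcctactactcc
Dusp1, chr17:26508473-26508672, minus strand: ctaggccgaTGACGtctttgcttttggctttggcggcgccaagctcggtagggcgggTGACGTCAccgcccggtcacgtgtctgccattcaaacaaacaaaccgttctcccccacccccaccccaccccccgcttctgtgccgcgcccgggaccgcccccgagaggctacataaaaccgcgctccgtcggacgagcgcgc

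The Jun window held 1 TGACNTCA match, which begins 45 bases before the start and reads TGACATCA. The Fos window held 2 TGACG matches, at 129 and 66 bases before the start. In Dusp1 the palindrome TGACGTCA begins 143 bases before the start, and a further TGACG begins at 191 bases. Fosb and Junb each held 1 TGACG, at 60 and 106 bases before the start. No match was found in the windows of Ier3 and Fosl2. TGANTCA and the CArG box matched none of the 7 windows, which says only that these letters are absent from these bases. Among all 32851 promoter windows in the table, 20.8% held TGACG, 8.83% TGACNTCA, 7.81% TGANTCA and 1.63% the CArG box. The matches are a description of the sequence and were not tied to the expression values.

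The arrays had a single dye, Cy3. A spot's intensity is its brightness after background subtraction, and the ratio given here is CHIR99021 over control after each intensity was divided by the 75th percentile of its array, 486.7 for the control and 469.2 for CHIR99021. A gene was called higher at a ratio of at least 1.5 and lower at a ratio of at most 0.66. A probe was used where the scanner software marked it well above background on either array or both, which left 18837 gene names, of which 16871 were measured on both arrays. Where several probes covered a gene, the brightest on average stood for it. Where 1 array did not measure a probe, its ratio was taken at its limit, against the lowest signal well above background there. All 10 members were measured on both arrays. They were covered by 15 probes of 1 spot each, of which 12 were well above background on both arrays and 3 on neither. The error given with a member's log2 ratio is that of the scanner software for the 2 spots. It ranged from 0.20 to 0.32 over the members' probes and covers the measurement of the spot, not differences between cultures.

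Of the 10 members, 3 had a higher signal in CHIR99021-treated cells, 1 had a lower signal and 6 lay between the limits. Over all gene names tested, 7.54% were higher and 7.85% lower by the same rule. Among gene names measured on both arrays, as all members were, these shares were 5.08% and 5.77%. The higher members were Fosl1, Ier3 and Jun, and the lower member was Fos. The median log2 ratio of the members was 0.16, beside 0.02 over all gene names tested. With a ratio of at least 2.0 or at most 0.5, 2 members (Fosl1 and Ier3) were higher and none was lower, beside 3.12% and 3.43% of gene names. A second rule added a Z-score, the distance of a log2 ratio from the mean of the 500 probes nearest in mean signal, in units of their SD, of at least 2 or at most -2. By that rule Fosl1 and Ier3 were higher and no member was lower, beside 2.72% and 3.29% of gene names. As 1 gene is 10% of the members, these shares cannot be read finely.

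**Figure D1:**
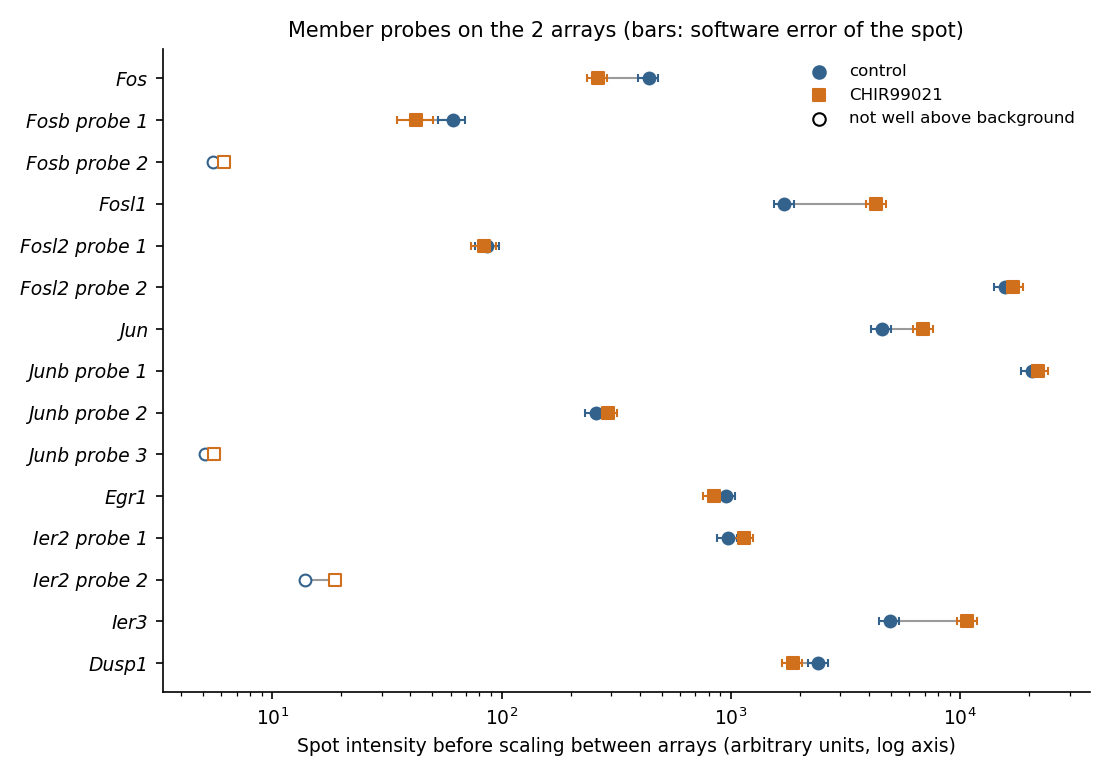
Intensity of each of the 15 member probes in control (circles) and CHIR99021-treated cells (squares), before scaling, on a log axis, with the scanner software's error of the spot as bars. Fosl1, Ier3 and Jun lie to the right after CHIR99021 and Fos to the left, and the 3 probes with open symbols were not well above background on either array. Intensities of different probes are not comparable with each other.

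Within the Fos family, the 4 genes did not move one way. Fosl1 encodes Fra-1, a Fos-type subunit without the strong activation domain of c-Fos. Its probe at chr19:5455496-5455555 (mm9, the build of the array files) gave an intensity of 1712 in control and 4315 in CHIR99021-treated cells. The ratio was 2.61 and the log2 ratio 1.39 ± 0.20 (software error), which is 6.79 times its error. Fosl1 ranked 86 from the top among the 16871 gene names measured on both arrays, the highest rank of any member.

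Fos encodes c-Fos, the founding member of the family. Its probe at chr12:86818118-86818177 gave 437.9 in control and 262.4 in CHIR99021-treated cells. The ratio was 0.622 and the log2 ratio -0.69 ± 0.21, which is 3.31 times its error and close to the limit of 0.66. The log2 ratios of Fosl1 and Fos therefore differed by 2.07. Fos ranked 747 from the bottom among gene names measured on both arrays, and its Z-score was -1.62. With normexp background correction its ratio was 0.668, which ended the call.

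Fosb encodes FosB and its shorter form ΔFosB, and the array does not tell these forms apart. The brighter of its 2 probes, at chr7:19888168-19888227, gave 61.1 in control and 42.6 in CHIR99021-treated cells, a log2 ratio of -0.47 ± 0.32. Among the probes that stood for a member, it had the largest error. The other probe, at chr7:19890146-19890205, reached neither array's threshold over background (5.50 and 6.15).

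Fosl2 encodes Fra-2, the second Fos-related subunit. Its brighter probe, at chr5:32460076-32460135, gave 15659 in control and 17059.8 in CHIR99021-treated cells, a log2 ratio of 0.18 ± 0.20. Its other probe, at chr5:32455088-32455147, gave 86.8 and 84.0, a log2 ratio of 0.01 ± 0.25. Both differences were smaller than their error.

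The Jun family was represented by Jun and Junb. Jun encodes c-Jun, which pairs with every Fos-type protein. Its probe at chr4:94716928-94716987 gave 4555 in control and 6899.8 in CHIR99021-treated cells. The ratio was 1.57 and the log2 ratio 0.65 ± 0.20, 3.20 times its error, with a Z-score of 1.88. The ratio lay just above 1.5, and it fell just below it (1.49) after quantile normalization, which ended the call.

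Junb encodes JunB, a subunit that often activates less strongly than c-Jun. Its brightest probe, at chr8:87500843-87500902, gave 20566 in control and 21870.4 in CHIR99021-treated cells, a log2 ratio of 0.14 ± 0.20. A further probe, at chr8:87501881-87501940, gave 258 and 291, a log2 ratio of 0.22 ± 0.21. The last, for a cDNA at chr8:87496635-87496694, was too dim on both arrays (5.08 and 5.57). These differences were 0.694 and 1.07 times their errors, and the log2 ratio of Jun was 0.51 larger than that of Junb.

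**Figure D2:**
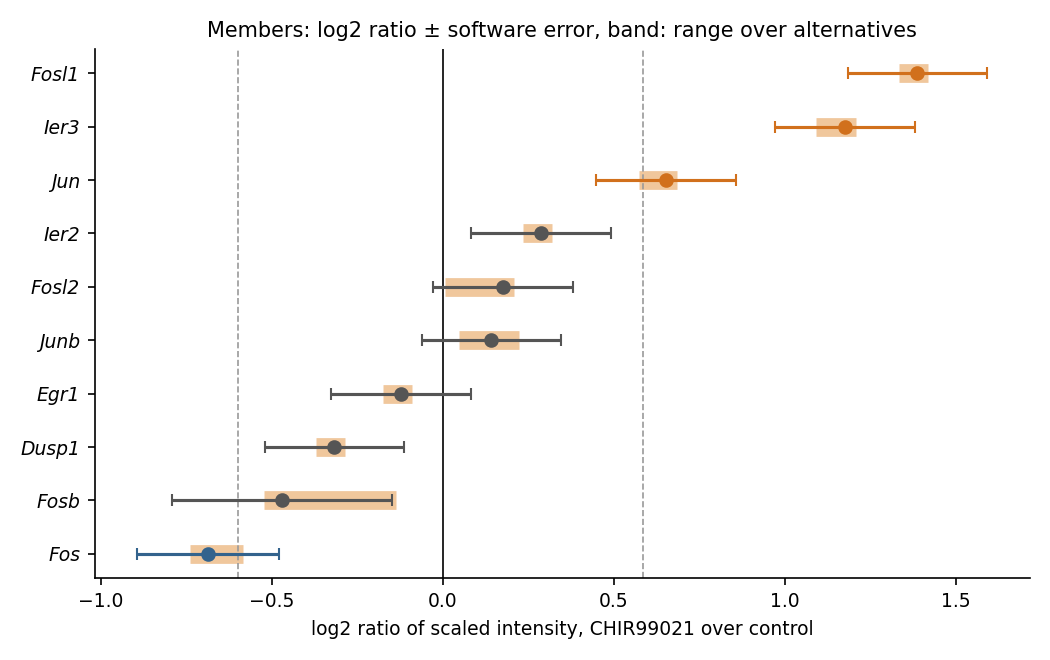
The log2 ratio of CHIR99021 over control for each of the 10 members (points) with the scanner software's error (bars), the range over the alternative settings (shaded bands) and the limits of 1.5 and 0.66 (dashed lines). Fosl1 and Ier3 lie above 1.0 with their whole bands, while the bands of Jun and Fos reach across a dashed line.

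The other 4 members are immediate early genes outside AP-1. Ier3, also known as IEX-1, encodes a short-lived regulator of cell survival and of ERK signalling. Its probe at chr17:35959528-35959587 gave 4926 in control and 10718 in CHIR99021-treated cells. The ratio was 2.26 and the log2 ratio 1.17 ± 0.20, 5.76 times its error. Ier3 ranked 130 from the top of the gene names measured on both arrays, with a Z-score of 3.66, beside 4.41 for Fosl1.

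Ier2, a small nuclear protein gene induced together with Fos in many cells, gave 968 in control and 1139 in CHIR99021-treated cells. Its log2 ratio was 0.29 ± 0.20, so it was 0.89 below that of Ier3. The listed position of this probe, chr8:87185211-87185245, spans 35 bases. A probe for a further cDNA, at chr8:87183623-87183681, was too dim on both arrays (13.9 and 18.7).

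Egr1 encodes a zinc-finger transcription factor downstream of ERK and serum response factor. Its intensity was 949 in control and 841 in CHIR99021-treated cells, a log2 ratio of -0.12 ± 0.20. Dusp1 encodes MKP-1, a phosphatase that switches off p38, JNK and ERK. Its probe at chr17:26642624-26642683 gave 2407 in control and 1863 in CHIR99021-treated cells, a log2 ratio of -0.32 ± 0.20, which is 1.55 times its error. Neither gene passed the limits. Of the 10 members, 6 had a ratio above 1 and 4 a ratio below 1, and each gene kept its direction under all alternative settings that measured it. Exon and UTR positions of the probes were not assigned, since gene models of mm9 were not used here. The RefSeq accession that the array pairs with each probe carried the same symbol in the gene table for 13 of the 15 probes, and the others are cDNA accessions.

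**Figure D3:**
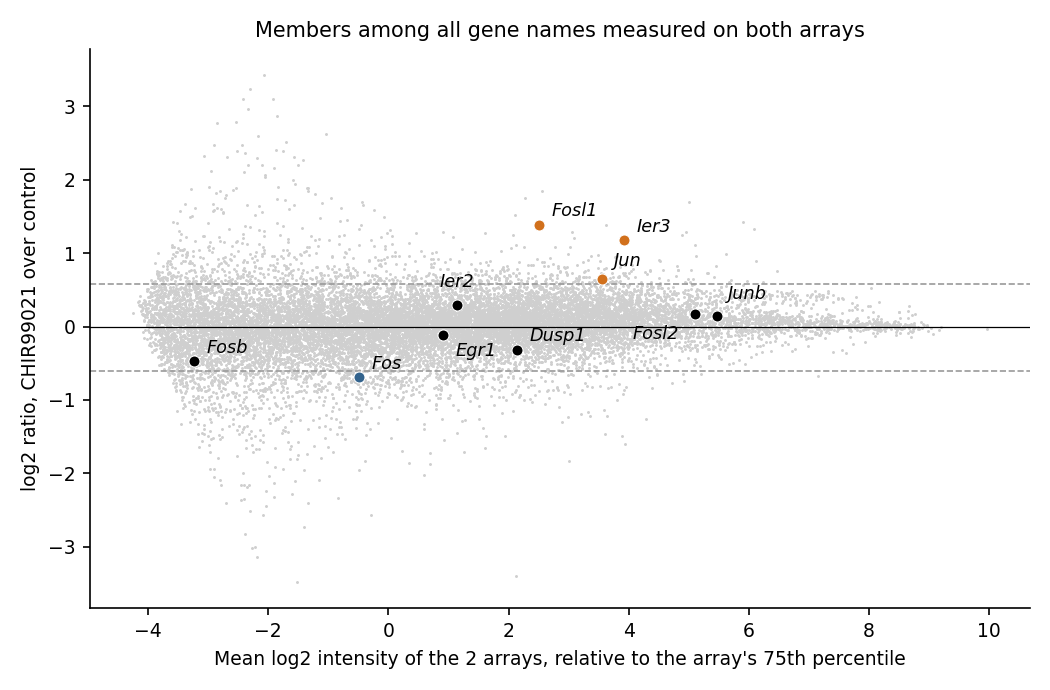
The log2 ratio of CHIR99021 over control against the mean log2 intensity of both arrays, relative to the 75th percentile, for the 16871 gene names measured on both arrays (grey) and the 10 members (labelled, orange if higher, blue if lower, black otherwise), with dashed lines at 1.5 and 0.66. Fosl1 and Ier3 stand at the upper edge of genes of like intensity, whereas the other members lie inside or at the border of the cloud.

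Position on the array was compared because calls were not evenly placed. The rows past the middle of the array held 52.1% of the probes tested, 65.8% of the probes called and 56.5% of those called that were measured on both arrays, as the members were. Fosl1 lay in the earlier rows, while Ier3, Jun and Fos lay in the later rows. The pixels within the measured member spots were even, with an SD over mean signal from 0.0840 to 0.237, and no spot passed the 99th percentile of earlier-row spots (0.260 for control and 0.261 for CHIR99021). The adjacent spots measured on both arrays had a median log2 ratio of 0.18 for Fosl1 (2 spots), -0.11 for Ier3 (2 spots), -0.42 for Jun (3 spots) and -0.14 for Fos (3 spots). The part of array position in these results was not tested. Among 220 probes printed 10 times, the SD of the log2 ratio between spots had a median of 0.03.

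The label of the cells and the action of the compound were checked on fixed lists. Of 8 listed targets of the β-catenin pathway, 5 were measured on both arrays, of which 4 (Lef1, Tcf7, Rnf43 and Znrf3) were higher and Notum lay between the limits at 1.30, beside 5.08% higher among all gene names measured on both arrays. Lef1 gave 239 in control and 690 in CHIR99021-treated cells, a log2 ratio of 1.58. Axin2 and Nkd1 were well above background on the CHIR99021 array only, at least 1.66-fold and at least 25.8-fold higher, so they could pass the filter only through the array where they are high. The Nkd1 spot lay in the later rows and was uneven after CHIR99021, with a pixel SD over mean of 0.401, above the limit of 0.261. Of 9 epithelial markers, 4 (Cdh1, Epcam, Krt8 and Krt19) were not well above background on either array, and none of the 3 ameloblast products was. All 9 mesenchymal markers were well above background on both arrays. Of these 9, 2 (22.2%) were higher and none was lower. The shares were 7.54% and 7.85% over all gene names, and 5.08% and 5.77% over those measured on both arrays. The part of such expression in the results for the AP-1 genes was not tested, and less RNA per cell cannot be told apart from fewer cells in such bulk samples.

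The other bZIP proteins that can pair with Fos or Jun had members above the upper limit and none below the lower one at their brightest probes. Of 11 listed, 9 were measured, all on both arrays, and 2 were higher (22.2%). The share was 7.54% over all gene names and 5.08% over those measured on both arrays. Atf3, a stress-induced partner of Jun, gave 2589 in control and 6066 in CHIR99021-treated cells, a ratio of 2.43. Mafk, a small Maf protein, gave 2694 and 4398, a ratio of 1.69. Jund, the remaining Jun protein, gave 8150.3 and 6275, a ratio of 0.799, between the limits. A dimmer probe of Mafg gave 1.67, so that Mafg was above 1.5 with the mean or the highest-ratio probe of a gene. A probe of Atf7 measured in control only gave at most 0.126, so that Atf7 was lower with the lowest-ratio probe; that spot was uneven in control, with a pixel SD over mean of 0.440. Batf and Batf2 were not well above background on either array. The median log2 ratio of the measured genes was 0.08.

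Further immediate early genes were divided. Of 42 listed, 39 were measured, all on both arrays, and 6 (15.4%) were higher and 9 (23.1%) lower. Over all gene names 7.54% were higher and 7.85% lower, and over those measured on both arrays 5.08% and 5.77%. The median log2 ratio of the list was -0.0026. Among the higher genes, Dusp4, a nuclear phosphatase of ERK, gave 183 in control and 483 in CHIR99021-treated cells, a ratio of 2.74. Plk3, a polo-like kinase induced by stress, gave 1333 and 3034, a ratio of 2.36. The other 4 were Dusp2, Nr4a1, Csrnp1 and Ptgs2, with ratios from 1.55 to 1.92. Ptgs2, at 1.55, was below 1.5 after quantile normalization, without scaling, with the percentile over probes measured on both arrays and in the authors' normalized table. Dusp5 was above 1.5 with median scaling, and Per1 with the mean or the highest-ratio probe of a gene.

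The lower immediate early genes included the list's largest changes. Klf2, a zinc-finger factor known from endothelial cells, gave 258 in control and 52.5 in CHIR99021-treated cells, a ratio of 0.211. Ctgf, a matricellular protein gene known as a target of YAP and serum response factor, gave 7391 and 1998, a ratio of 0.280. Both lay in the earlier rows of the array.

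Sgk1, a serum- and glucocorticoid-induced kinase, gave 12125 in control and 4155 in CHIR99021-treated cells, a ratio of 0.356. Pim1, a serine/threonine kinase, gave 1185 and 435, a ratio of 0.381. The other 5 lower genes were Dusp6, Rhob, Ier5l, Btg2 and Cyr61, with ratios from 0.481 to 0.631. Btg2 was above 0.66 with normexp. Klf6 was at or below 0.66 after quantile normalization, without scaling, with the percentile over probes measured on both arrays and in the authors' table, Id1 without scaling and with that percentile, and Trib1 with the lowest-ratio probe of a gene. Egr3, Egr4 and Hes1 were not well above background on either array.

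Upstream of AP-1, none of 19 measured genes passed a limit in either direction at its brightest probe. Over all gene names 7.54% were higher and 7.85% lower, and over those measured on both arrays, as the 19 were, 5.08% and 5.77%. The 19 genes were the serum response factor Srf and its partners, CREB-type factors, the MAP kinases with their kinases, and Fbxw7, a ubiquitin ligase subunit that recognises c-Jun. Their log2 ratios lay between -0.29 and 0.51 with a median of 0.04. Dimmer probes of Fbxw7 and Map2k2 gave ratios of 1.73 and 2.39, so that both genes were above 1.5 when the mean or the highest-ratio probe of a gene was used, and Fbxw7 also in the earlier rows alone. The dimmer Map2k2 probe gave only 35.7 in control, and its spot was uneven after CHIR99021, with a pixel SD over mean of 0.303, above 0.261. For Fbxw7 the spot of the brightest probe was uneven in control (0.272, above 0.260). Mapk10 was too dim on both arrays.

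Genes known as AP-1 targets in other cells gave 3 higher (16.7%) and none lower among 18 measured, beside 7.54% and 7.85% of all gene names, of which Mmp9 was measured on the control array only. Areg, the growth factor amphiregulin, gave 99.03 in control and 354 in CHIR99021-treated cells, a ratio of 3.71. Mmp10, the protease stromelysin-2, gave 61.5 and 169, a ratio of 2.85. Il6, the cytokine interleukin-6, gave 5679 and 8393, a ratio of 1.53, but its other probe gave 1.37. It was below 1.5 after quantile normalization, without scaling, with the percentile over probes measured on both arrays, with normexp, in the authors' normalized table, with the mean or the lowest-ratio probe of a gene and in the earlier rows alone.

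The remaining targets lay between the limits. They included Mmp3, Mmp13, Plau, Plaur, Timp1 and Ccnd1, and their lowest log2 ratio was -0.48 (Dcn). Over the 18 genes the median log2 ratio was 0.20, beside 0.02 over all gene names tested. These lists were put together from knowledge of the genes, with earlier results of these data known, and their counts are a description of these 2 arrays.

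**Figure D4:**
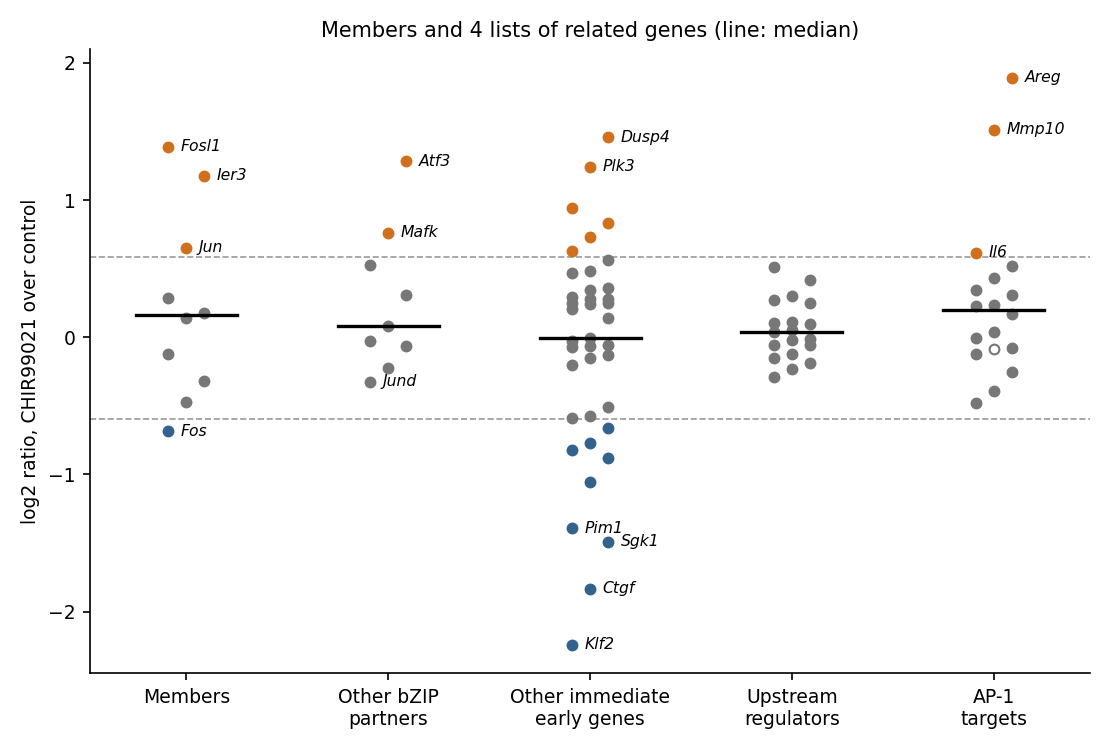
The log2 ratio of CHIR99021 over control for each measured gene of the members and of 4 lists of related genes, with the median as a bar and dashed lines at 1.5 and 0.66 (orange, higher; blue, lower; grey, between; the open symbol is a gene measured on 1 array, at its limit). The immediate early list reaches from Klf2 at -2.24 to Dusp4 at 1.46, whereas the upstream genes, at their brightest probes, stay between the dashed lines.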

How the data were processed

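The authors labelled total RNA of mDE6 cells with Cy3 and hybridised it to 2 Agilent mouse arrays, 1 per condition. Each deposited intensity is a spot's background-subtracted signal from Feature Extraction (10.7.1.1 in the file headers, 9.5.1.1 in the labels), with no scaling between arrays. A second deposited table holds intensities that the authors normalized across both arrays, by a method not given in the sources used here.

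Intensities were divided by the 75th percentile of their array over 59305 spots and taken as log2 (Python 3.11.15, numpy 2.4.6, pandas 2.3.3). Control spots and 101 outlier spots were left out, repeated spots were averaged, and the 28066 probes that either array measured well above background were kept. Calls used ratios of 1.5 and 0.66. The calls were tested on simulated data. No p-value was computed, since each condition has 1 array.

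The members and lists were chosen with earlier results of these data known. Outside the members, genes were named by a rule: measured on both arrays, past a limit, at most 6 per list, with Jund and Atf3 always. Genes given only in a list or in a range of ratios were named in full to account for a count. Alternatives were other scalings, background correction by normexp in limma 3.58.1 (R 4.3.3; offset 50), the authors' table, other filters, a floor, other probe choices, the earlier rows only and stricter call rules. Figures were drawn with matplotlib 3.10.9.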

Additional observations from a re-analysis of the deposited data

How the results depend on the processing

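No paired analysis was possible because the design holds 1 array for either condition. Each member kept its direction under all alternatives that measured it. Fosl1 and Ier3 stayed above 1.5, with log2 ratios from 1.33 to 1.42 and from 1.09 to 1.21. Jun lost its call after quantile normalization and in the authors' normalized table, which left 2 higher members. Fos lost its call with normexp background correction, where its ratio was 0.668 and 0 members were lower. The count of lower members was also 0 with the Z-score added and with ratios of 2.0 or 0.5. In the earlier rows alone, where 4 members have a probe, 1 member was higher and 0 were lower, and of 51 measured genes of the 4 lists 7 were higher and 5 lower, against 11 and 9 of 85. Fewer genes were tested there, and over all gene names 4.998% were higher and 5.66% lower. With no scaling the split of 11 higher and 9 lower turned to 9 and 11, while over all gene names 7.54% higher and 7.85% lower turned to 6.51% and 9.004%. The members' median log2 ratio of 0.16 was 0.0736 after quantile normalization, 0.19 with median scaling, 0.11 with the percentile over probes measured on both arrays, 0.11 without scaling, 0.0546 in the authors' table, 0.0735 and 0.20 with the lowest-ratio and highest-ratio probe of each gene, and 0.24 in the earlier rows. The causes of these shifts were not tested. Dim probes such as that of Fosb, whose log2 ratio ran from -0.52 to -0.14 over the alternatives, limit what can be read from the low end.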

Other observations

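Genes named Dusp, the dual-specificity phosphatases to which Dusp1 belongs and which include MAP kinase phosphatases and other enzymes, were looked at as a family after their values were seen. Of 24 such gene names on the array, 21 were tested, 3 were higher (Dusp2, Dusp3 and Dusp4) and 3 were lower (Dusp6, Dusp10 and Dusp26), beside 7.54% and 7.85% of all gene names, with a median log2 ratio of 0.03. Dusp3 gave 2700.4 in control and 4120 in CHIR99021-treated cells, a ratio of 1.58. Dusp10, a phosphatase of JNK and p38, gave 189 and 103, a ratio of 0.568. Dusp26 was well above background in control only, with a ratio of at most 0.403. Dusp6, a cytoplasmic phosphatase of ERK, gave 1217 and 564, a ratio of 0.481, whereas Dusp4, a nuclear one, gave 183 and 483, a ratio of 2.74.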
